A study of Mus musculus with 24 samples.

Results

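The transcription factors that set up and guide the B-lymphocyte lineage were followed in blood-forming cells of mice labelled knockout (KO) or wild type (WT) for Bap1, which encodes a nuclear deubiquitinase acting on histone H2A. The genes were Ebf1, Pax5, Tcf3, Ikzf1, Ikzf3, Foxo1, Bcl11a, Mef2c, Pou2af1 and Lmo2, taken from a given list and matched to the gene symbols of the array without regard to case. All 10 were found, among 17741 named genes in all. Bcl11a and Mef2c had 2 probes each and the other genes 1, so that 12 of the 22439 probes belonged to them. Each gene was represented by the probe with the highest mean over all arrays, and the other probe served as a check.

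The series held 24 one-colour arrays of RNA from sorted bone marrow cells. There were 4 groups: LSK cells of KO-labelled mice (mice 2 and 4), LSK cells of WT-labelled mice (mice 1 and 3), myeloid progenitors of KO-labelled mice (mice 7 and 8) and myeloid progenitors of WT-labelled mice (mice 5 and 6). LSK cells are lineage-negative, Sca1-positive, Kit-positive cells, a fraction enriched for hematopoietic stem cells, and the myeloid progenitors were lineage-negative, Sca1-negative and Kit-positive. Each group held 2 mice with 3 arrays each, and no mouse gave both populations. All mice were C57BL/6, and tamoxifen was injected to delete Bap1 throughout the body. The labels make no distinction between KO and WT mice in this injection. The sources used here give neither the driver of the recombinase nor the age of the mice nor the time after tamoxifen. Values are log2 expression levels, and a change is a difference of mouse means in log2 units, in which 1 unit is a factor of 2.

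The labels were set against the data first. The only Bap1 probe read 11.96 and 11.84 in KO-labelled against 11.55 and 11.45 in WT-labelled LSK cells, and 11.67 and 11.85 against 11.54 and 11.59 in myeloid progenitors. It was thus not lower in the KO-labelled mice (change 0.40 ± 0.18, SE, limma adjusted p = 0.321, and 0.20 ± 0.18, adjusted p = 0.843). Where this probe lies relative to the deleted part is not given, so it does not check the genotype, and every direction below rests on the labels. Most markers matched the populations. In WT-labelled mice 7 of 9 LSK markers, among them Hlf, Mecom and Flt3, were higher in LSK cells than in myeloid progenitors. There 8 of 12 myeloid progenitor markers, among them Elane and Car1, were lower, against 13.5% of all genes called and 8.08% called higher. In KO-labelled mice 7 of the 9 LSK markers were higher in LSK cells but 1, Slamf1, was lower. There 8 of the 12 myeloid progenitor markers were lower, against 12.8% of all genes called and 7.26% called higher. In LSK cells 3 of the 12 myeloid progenitor markers (Elane, Ctsg and Cebpe) were higher in KO-labelled than in WT-labelled mice. Of all genes 1.74% were called higher in that comparison. Of the 9 LSK markers 0 passed there, against 4.64% of all genes, with a median change of -0.49. At an unadjusted p under 0.05 there were 3, against 16.6% of all genes. In myeloid progenitors 1 of the 9 LSK markers fell, where 1.74% of all genes were called lower. This was Cd34, a surface marker of stem and progenitor cells, which fell by 1.18 ± 0.18 (adjusted p = 0.00647). Its change in LSK cells was -0.70 ± 0.18 (adjusted p = 0.0593). The part of these markers in the results below was not tested. The Y-linked gene Kdm5d read 7.88 in mouse 1 and 8.15 in mouse 5, both labelled WT, and 5.93 to 6.02 in the other 6 mice. Counts are therefore also given without these 2 mice. That leaves mouse 3 as the only WT-labelled mouse for LSK cells and mouse 6 as the only one for myeloid progenitors. A call lost there cannot be told apart from the effect of fewer mice.

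B-cell fate is set step by step. The E protein encoded by Tcf3 (E2A) and the zinc finger protein Ikaros, encoded by Ikzf1, act in early lymphoid progenitors, where they help to turn on Ebf1 together with Foxo1 and signals through the interleukin-7 receptor. EBF1 then specifies the B lineage by opening B-cell genes, and PAX5 commits the cells to it. Bcl11a and Mef2c act in early progenitors and in lymphoid priming, Lmo2 bridges DNA-binding proteins in stem and progenitor cells, and Ikzf3 (Aiolos) and Pou2af1 (OCA-B, a co-activator at octamer sites) are best known from later B cells.

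Ebf1 fell in KO-labelled mice in both LSK cells and myeloid progenitors, and so did the brighter Mef2c probe, less firmly. The Mef2c call was lost in LSK cells without any 1 of mice 1 to 4 (adjusted p up to 0.131) and in myeloid progenitors without any 1 of mice 5 to 8 (adjusted p up to 0.252), with averaged probes, and without mice 1 and 5 or with Kdm5d as a covariate, and the dimmer Mef2c probe did not pass. In LSK cells 2 of the 10 genes passed the threshold (adjusted p under 0.05), both lower, against a background of 4.64% of all genes called in either direction and 2.9% called lower. The same counts were 2 of 10 and 2 lower in myeloid progenitors, against 2.64% called and 1.74% called lower. Among all genes 165 were called lower in both populations, which is 0.93%. At an unadjusted p under 0.05 there were 4 of the 10 genes in LSK cells, against 16.6% of all genes, and 2 in myeloid progenitors, against 11.4%. The median change of the 10 genes was -0.26 in LSK cells and -0.11 in myeloid progenitors, against 0.02 and 0.00 over all genes. In these sorted bulk samples, fewer cells of a type that carries a transcript and less of that transcript per cell cannot be told apart.

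**Figure D1:**
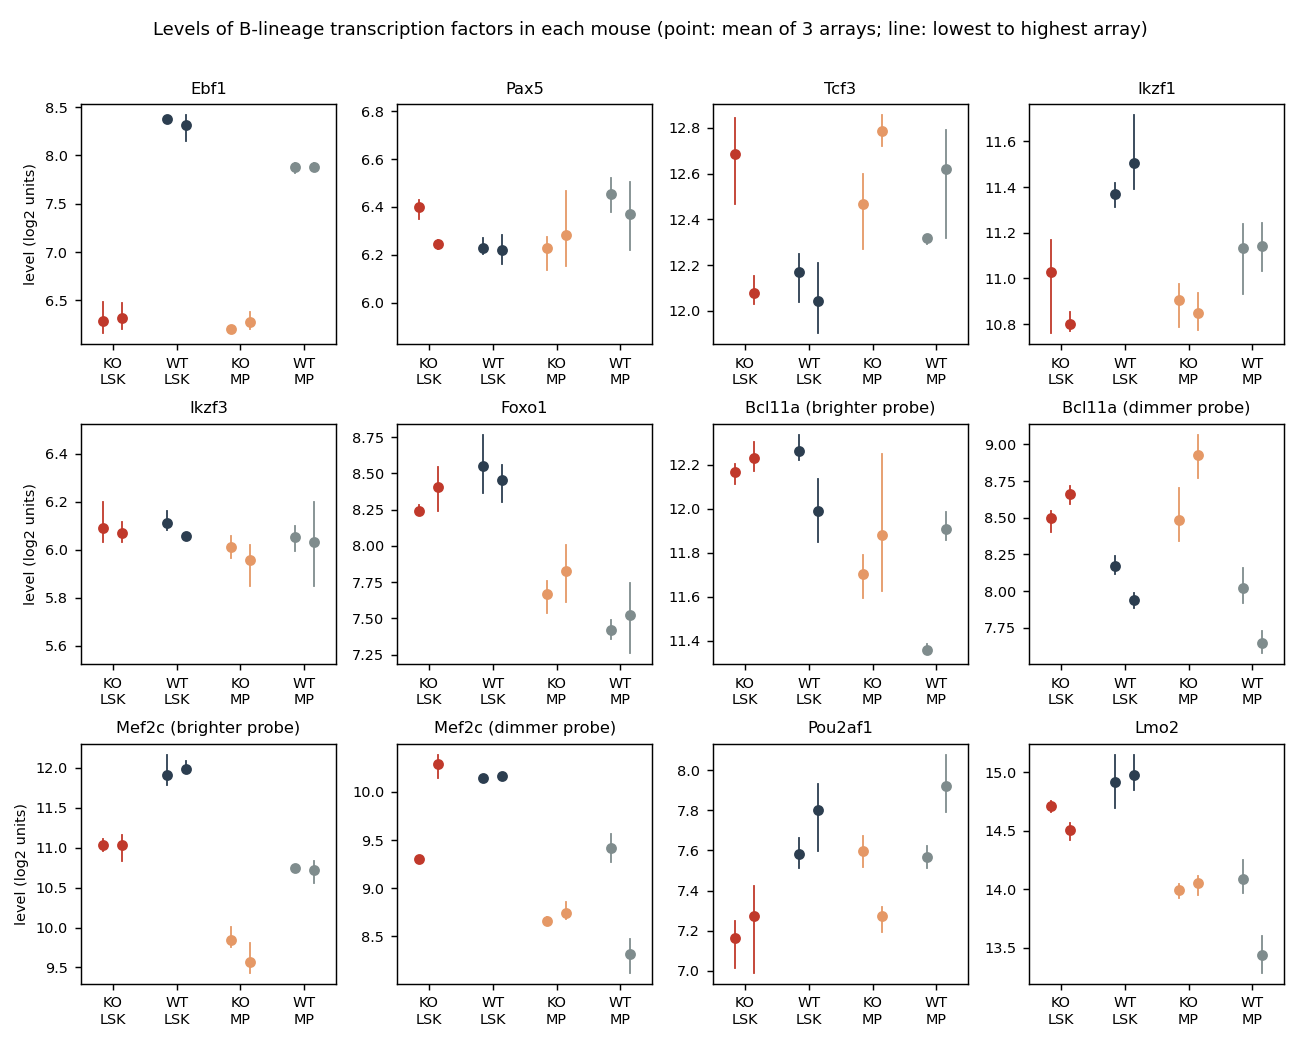
Levels of the 12 probes (y axis, log2 units, a separate scale per panel) in LSK cells and myeloid progenitors (MP) of KO-labelled and WT-labelled mice, with a point for the mean of a mouse's 3 arrays and a line from its lowest to its highest array. The 4 KO-labelled mice lie between 6.20 and 6.32 for Ebf1 and the 4 WT-labelled mice between 7.88 and 8.37, while the Mef2c probes differ from each other.

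Ebf1, the factor that specifies the B lineage, had the largest change of the 10 genes in either direction. Its probe read 6.28 and 6.32 in LSK cells of KO-labelled mice, against 8.37 and 8.32 in those of WT-labelled mice. In myeloid progenitors it read 6.20 and 6.27 in KO-labelled mice, against 7.88 and 7.88 in WT-labelled mice. The groups did not overlap in either population, and the 3 arrays of a mouse spread by less than the gap between the groups: the highest array of a KO-labelled mouse read 6.49 and the lowest of a WT-labelled mouse 7.81. Ebf1 fell by 2.04 ± 0.14 in LSK cells, a 4.13-fold difference (SE, n = 2 mice per group, limma adjusted p = 7.56e-05, 95% interval -2.34 to -1.75). It fell by 1.64 ± 0.14 in myeloid progenitors, a 3.12-fold difference (adjusted p = 0.000261, interval -1.94 to -1.34). Both changes stayed past the threshold under each of the 22 alternatives run, at -2.12 to -1.98 and -1.67 to -1.61. The difference between the 2 changes was -0.40 ± 0.19 and did not pass (adjusted p = 0.837).

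The Ebf1 level in KO-labelled mice was near the low end of the array. Between 26.2% and 30.3% of the probes of those mice read lower, and the 25th percentile of an array was 6.15 to 6.18, whereas in WT-labelled mice 59.1% to 64.1% of probes read lower. No detection call is given with the values, so a KO-labelled level there cannot be separated from no signal, and the folds above are no measure of how much transcript was left. The order of the groups was WT-labelled LSK cells, WT-labelled myeloid progenitors, KO-labelled LSK cells and KO-labelled myeloid progenitors. The first 2 of these differed at the margin, by 0.47 ± 0.14 (adjusted p = 0.0449), a call lost under 12 of 22 alternatives, among them without any single mouse (adjusted p up to 0.178). The last 2 differed by 0.06 ± 0.14 (adjusted p = 0.836).

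The sequences just before the annotated starts of Ebf1 are shown because Ebf1 carried the largest change. They are the 250 bases before each of 2 RefSeq starts (GRCm38.p6, plus strand), in lower case with every match to a searched motif in capitals. The first window, chr11:44617850-44618099, holds 2 matches to GGGAA, the core that Ikaros proteins bind, at 154 and 138 bases before the start, and 1 match to GATAA, the core of GATA sites, at 117 bases, all read here on the other strand as TTCCC and TTATC. The second, chr11:44619978-44620227, holds 1 match to GGGAA, at 207 bases.
Ebf1 start 1: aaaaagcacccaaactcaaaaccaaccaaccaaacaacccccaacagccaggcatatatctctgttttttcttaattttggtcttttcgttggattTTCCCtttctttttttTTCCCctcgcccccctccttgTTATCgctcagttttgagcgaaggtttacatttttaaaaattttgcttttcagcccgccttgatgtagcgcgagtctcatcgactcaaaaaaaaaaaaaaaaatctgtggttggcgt
Ebf1 start 2: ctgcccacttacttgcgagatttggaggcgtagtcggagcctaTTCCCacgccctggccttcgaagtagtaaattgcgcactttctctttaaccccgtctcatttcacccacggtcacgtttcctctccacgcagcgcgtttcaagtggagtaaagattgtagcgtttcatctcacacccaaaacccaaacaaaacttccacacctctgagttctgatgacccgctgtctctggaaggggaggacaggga

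Neither window held the EBF1 palindrome CCCNNGGG, the E-box forms CAGGTG or CAGCTG bound by E proteins, the FOXO sequence TGTTTAC or the octamer ATGCAAAT, on either strand. RefSeq windows were matched for 8 of the 10 genes, 12 windows in all. Of these 12, GGGAA was in 8, against 56.2% of all 32851 windows of this length, and GATAA in 2, the first Ebf1 window and a Mef2c window, against 22.6%. The palindrome CCCNNGGG was in 2, before Ikzf1 (1 of its 2 windows) and Foxo1, against 11.8%. CAGGTG (17.2% of all windows), CAGCTG (13.0%), TGTTTAC (3.17%) and ATGCAAAT (1.6%) were in 0 of the 12. These matches describe the letters of the windows and are no evidence of binding.

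The 3 genes whose 8 mouse levels, each centred on its own mean, lay closest to those of Ebf1 were Slc9a9, Map2k6 and Chst3, with root mean square differences of 0.15, 0.18 and 0.22 log2 units over the 8 mice. Slc9a9, an endosomal sodium/proton exchanger, averaged 6.94 in KO-labelled against 8.80 in WT-labelled LSK cells, and 6.74 against 8.36 in myeloid progenitors. Map2k6 (the kinase MKK6 upstream of p38) averaged 8.69 against 10.41, and 8.68 against 10.27. Chst3, a chondroitin sulfotransferase, averaged 6.40 against 8.14, and 6.17 against 8.00. They were picked for this likeness, so the values are a description.

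Mef2c, a MADS-box factor used in lymphoid-primed progenitors and early B cells, fell by about 1 log2 unit on its brighter probe. That probe read 11.03 and 11.04 in LSK cells of KO-labelled mice, against 11.91 and 11.99 in those of WT-labelled mice. In myeloid progenitors it read 9.84 and 9.57 in KO-labelled mice, against 10.74 and 10.73 in WT-labelled mice. Groups did not overlap in either population, and in contrast to Ebf1 all levels were well inside the range of the array, with 74.8% or more of the probes of each mouse reading lower. The probe fell by 0.92 ± 0.20 in LSK cells, a 1.89-fold difference (limma adjusted p = 0.0254, interval -1.35 to -0.49), and by 1.03 ± 0.20 in myeloid progenitors, a 2.04-fold difference (adjusted p = 0.0198, interval -1.46 to -0.59). Averaged over both populations it fell by 0.97 ± 0.14 (adjusted p = 0.00169). The difference between the 2 changes was 0.11 ± 0.28 (adjusted p = 0.967).

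The dimmer Mef2c probe did not follow. It read 9.31 and 10.29 in LSK cells of KO-labelled mice, against 10.15 and 10.16 in those of WT-labelled mice, so that mouse 2 lay low and mouse 4 above both WT-labelled mice. In myeloid progenitors it read 8.66 and 8.74 in KO-labelled mice, against 9.42 and 8.32 in WT-labelled mice, and the groups overlapped. The changes were -0.36 ± 0.39 (adjusted p = 0.741) and -0.17 ± 0.39 (adjusted p = 0.971). With its probes averaged, Mef2c was at -0.64 in LSK cells (adjusted p = 0.211) and -0.60 in myeloid progenitors (adjusted p = 0.363), and neither passed. With single mice left out, the change of the brighter probe was -0.96 to -0.88 in LSK cells and -1.16 to -0.89 in myeloid progenitors. Which transcripts the 2 probes read is not given.

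The Mef2c window that held motif matches lies at chr13:83523406-83523655 (GRCm38.p6, plus strand), 250 bases before 1 of 3 RefSeq starts, and is shown beside Ebf1 as the only other promoter of a factor that fell. It holds GGGAA at 207 bases and GATAA at 230 and 128 bases before the start, in capitals, and the other 2 Mef2c windows held none of the 7 motifs.
Mef2c start 2: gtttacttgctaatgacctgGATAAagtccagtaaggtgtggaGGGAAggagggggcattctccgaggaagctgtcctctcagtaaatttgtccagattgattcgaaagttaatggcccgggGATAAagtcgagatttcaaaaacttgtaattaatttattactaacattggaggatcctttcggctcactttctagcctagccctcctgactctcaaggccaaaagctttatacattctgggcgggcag

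The genes closest to the brighter Mef2c probe over the 8 mice were Antxr2, Armcx2 and Sh2d3c, with root mean square differences of 0.16, 0.16 and 0.16 log2 units. Antxr2 (an anthrax toxin receptor that binds matrix proteins) averaged 10.48 in KO-labelled and 11.41 in WT-labelled LSK cells, and 9.41 and 10.18 in myeloid progenitors. Armcx2 averaged 11.25 and 12.14 in LSK cells, and 10.23 and 11.16 in myeloid progenitors. Sh2d3c, a signalling adaptor, averaged 10.99 and 11.81 in LSK cells, and 9.58 and 10.89 in myeloid progenitors. All 3 were chosen for their likeness.

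**Figure D2:**
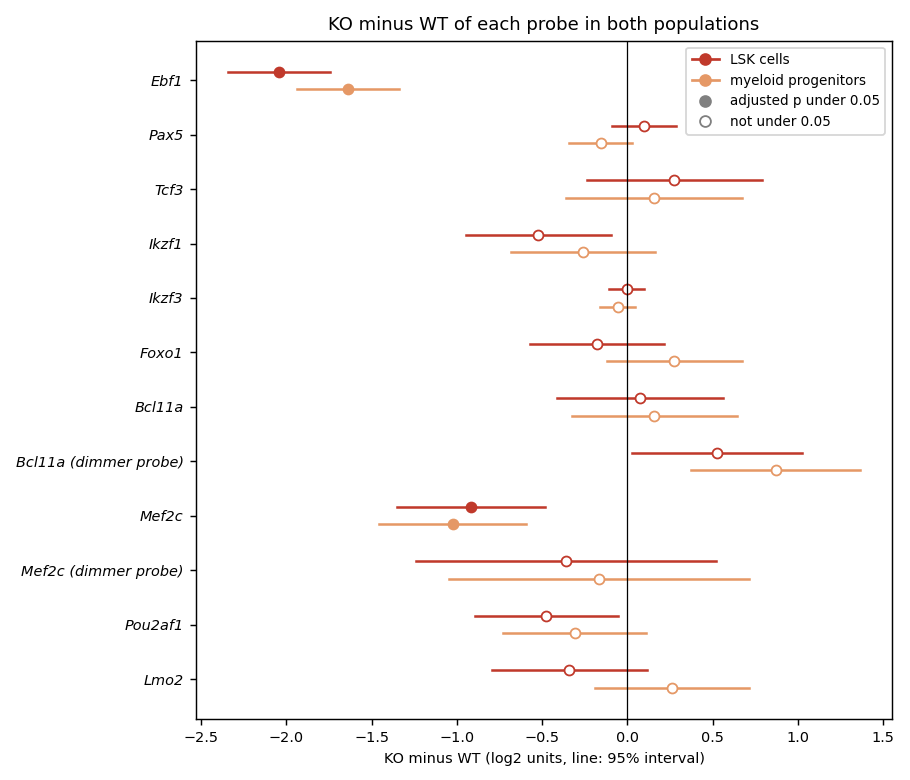
KO minus WT of the 12 probes (x axis, log2 units; points are differences of group means, lines 95% intervals, filled where the adjusted p is under 0.05) in LSK cells and myeloid progenitors. Ebf1 and the brighter Mef2c probe are filled in both populations, the dimmer Mef2c probe in neither, and both intervals of the dimmer Bcl11a probe lie above 0 without passing.

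The early lymphoid factors Tcf3, Ikzf1 and Foxo1 did not pass in either population. Ikzf1, which encodes Ikaros, read 11.03 and 10.80 in LSK cells of KO-labelled mice, against 11.37 and 11.51 in those of WT-labelled mice, and 10.90 and 10.85 against 11.13 and 11.14 in myeloid progenitors. The groups did not overlap in either population. The change was -0.52 ± 0.19 in LSK cells (unadjusted p = 0.0206, adjusted p = 0.193) and -0.26 ± 0.19 in myeloid progenitors (adjusted p = 0.768). Tcf3 was bright in all mice, at 12.69 and 12.08 in KO-labelled against 12.17 and 12.04 in WT-labelled LSK cells and at 12.47 and 12.79 against 12.32 and 12.62 in myeloid progenitors, with overlapping groups in both. Its changes were 0.28 ± 0.23 (adjusted p = 0.650) and 0.16 ± 0.23 (adjusted p = 0.930). The probe is named by symbol alone, and the symbol Tcf3 has also been used in mouse for Tcf7l1, which has a probe of its own on the array. Foxo1 read 8.24 and 8.41 in KO-labelled against 8.55 and 8.45 in WT-labelled LSK cells, and 7.67 and 7.82 against 7.42 and 7.52 in myeloid progenitors. It lay lower in the first pair and higher in the second without overlap, by -0.18 ± 0.18 (adjusted p = 0.717) and 0.28 ± 0.18 (adjusted p = 0.702), and the difference between these was -0.45 ± 0.25 (adjusted p = 0.874).

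Among the factors of stem and early progenitor cells, Lmo2 was the brightest of the 10 genes, with at least 98.4% of the probes of every mouse reading lower. Its probe read 14.71 and 14.51 in LSK cells of KO-labelled mice, against 14.92 and 14.98 in those of WT-labelled mice, and 14.00 and 14.06 against 14.09 and 13.44 in myeloid progenitors, where mouse 6 lay low and the groups overlapped. The changes were -0.34 ± 0.21 (adjusted p = 0.487) and 0.26 ± 0.21 (adjusted p = 0.784). The brighter Bcl11a probe read 12.17 and 12.23 in KO-labelled against 12.26 and 11.99 in WT-labelled LSK cells, and 11.71 and 11.88 against 11.36 and 11.91 in myeloid progenitors. Its groups overlapped in both, with changes of 0.07 ± 0.22 and 0.16 ± 0.22 (adjusted p = 0.926 and 0.924).

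The dimmer Bcl11a probe gave another picture. It read 8.50 and 8.66 in LSK cells of KO-labelled mice, against 8.17 and 7.94 in those of WT-labelled mice, and 8.48 and 8.93 against 8.02 and 7.65 in myeloid progenitors. All 4 KO-labelled mice lay above all 4 WT-labelled ones. The change was 0.53 ± 0.23 in LSK cells (adjusted p = 0.279) and 0.87 ± 0.23 in myeloid progenitors (adjusted p = 0.0849), and neither passed. The mean over both populations did, at 0.70 ± 0.16 (limma adjusted p = 0.0223), and was lost under 5 of 20 alternatives. Among these were the fits without mouse 3, 4, 6 or 8. With single mice left out the mean was 0.59 to 0.81. On the brighter probe the same mean was 0.12 ± 0.16 (adjusted p = 0.788). Like Mef2c, Bcl11a therefore had 1 probe past the threshold in a comparison in which its other probe was not.

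Of the later B-cell factors, Pax5 and Ikzf3 read low in every mouse. Pax5, which commits cells to the B lineage, read 6.40 and 6.24 in KO-labelled against 6.23 and 6.22 in WT-labelled LSK cells, and 6.23 and 6.28 against 6.45 and 6.37 in myeloid progenitors. Between 27.1% and 34.1% of probes read lower in each mouse. Ikzf3 read 6.09 and 6.07 against 6.11 and 6.06, and 6.01 and 5.96 against 6.05 and 6.03, with 9.9% to 22.0% of probes lower. Neither Pax5 (changes 0.10 and -0.16, adjusted p = 0.664 and 0.591) nor Ikzf3 (-0.0039 and -0.06, adjusted p = 0.982 and 0.810) passed, and levels this near the low end of the array leave little room for a decrease. Pou2af1 was measured higher up. Its probe read 7.16 and 7.27 in KO-labelled against 7.58 and 7.80 in WT-labelled LSK cells, without overlap, and 7.60 and 7.27 against 7.56 and 7.92 in myeloid progenitors, with overlap. The changes were -0.47 ± 0.19 (unadjusted p = 0.0298, adjusted p = 0.238) and -0.31 ± 0.19 (adjusted p = 0.672).

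Counted over all 10 genes, KO-labelled and WT-labelled mice did not overlap in LSK cells for 6 genes that lay lower and 1 (Pax5) that lay higher, where 20.9% of all genes lay lower and 25.7% higher without overlap. In myeloid progenitors 5 lay lower and 1 (Foxo1) higher, against 20.8% and 20.3%. For the mean over both populations 2 of 10 genes were called, both lower, against 7.95% of all genes called and 4.85% called lower. For the difference between the populations limma called 0 of 10, against 0.062% of all genes, with 0 also at an unadjusted p under 0.05, against 6.35%.

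LSK cells and myeloid progenitors were also compared within each label. In KO-labelled mice 1 of 10 genes passed, Mef2c, higher in LSK cells than in myeloid progenitors (1.33 ± 0.20, adjusted p = 0.00203), against 12.8% of all genes called and 7.26% called higher, so the count lay near the share of all genes. Foxo1 (0.58 ± 0.18, adjusted p = 0.0598) and Lmo2 (0.58 ± 0.21, adjusted p = 0.0970) did not pass. In WT-labelled mice 4 of 10 passed, all higher in LSK cells, against 13.5% of all genes called and 8.08% called higher. They were Mef2c (1.22 ± 0.20, adjusted p = 0.00258), Lmo2 (1.18 ± 0.21, adjusted p = 0.00393), Foxo1 (1.03 ± 0.18, adjusted p = 0.00389) and Ebf1 (0.47 ± 0.14, adjusted p = 0.0449). The dimmer Mef2c probe gave 1.10 ± 0.39 in KO-labelled mice (adjusted p = 0.110) and 1.29 ± 0.39 in WT-labelled mice (adjusted p = 0.0632). Whether these differences are smaller in KO-labelled mice is the same test as the difference of the KO effect, and it did not pass for Foxo1 (adjusted p = 0.874), Lmo2 (-0.60 ± 0.29, adjusted p = 0.839) or Ebf1 (adjusted p = 0.837). Without any 1 mouse the count in WT-labelled mice was 3 of 10, and without mice 1 and 5 it was 1, Lmo2.

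**Figure D3:**
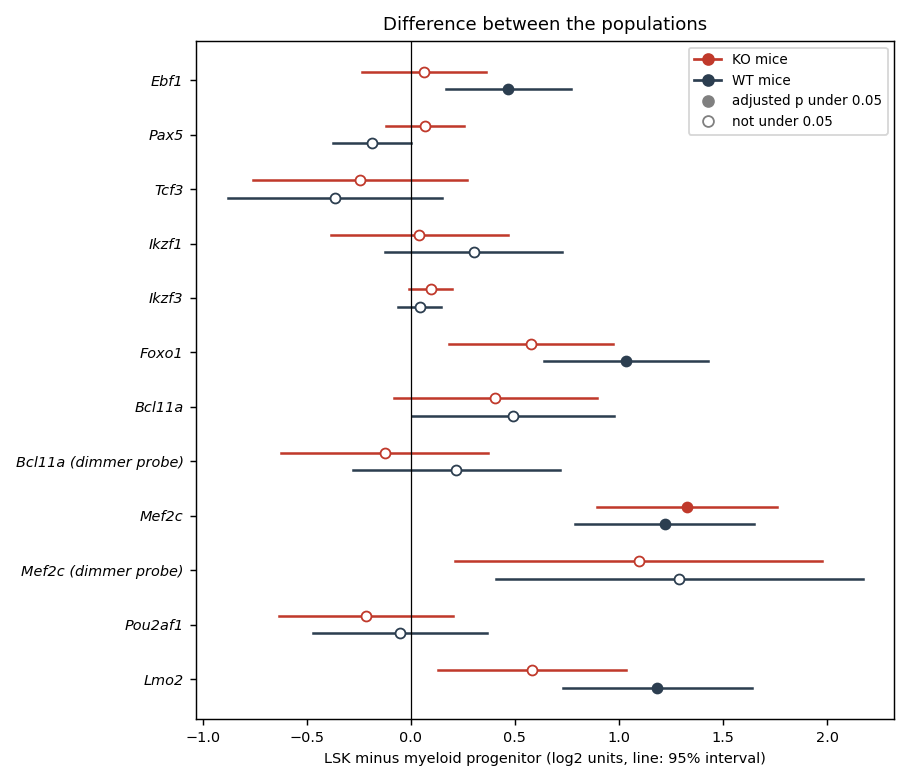
LSK cells minus myeloid progenitors for the 12 probes (x axis, log2 units; points are differences of group means, lines 95% intervals, filled where the adjusted p is under 0.05) within KO-labelled and within WT-labelled mice. The brighter Mef2c probe is filled in both, at 1.33 and 1.22, and the dimmer one in neither, while Ebf1, Foxo1 and Lmo2 are filled in WT-labelled mice.

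B-lineage genes known as targets of these factors fell in part. Of 25 measured target genes, 10 fell, 0 rose and 15 did not pass in LSK cells, with a median change of -0.43, and 7 fell, 0 rose and 18 did not pass in myeloid progenitors, with a median of -0.43, where 2.9% and 1.74% of all genes were called lower. The list was put together with earlier results of these data known, so its direction is no independent evidence. Without mice 1 and 5, 10 fell in LSK cells and 5 in myeloid progenitors, and without mouse 8 the second count was 4. Vpreb3, Igll1 and Vpreb1, which belong to or pair with the surrogate light chain that pre-B cells carry, are given first. Vpreb3 read 6.74 and 6.23 in KO-labelled against 11.27 and 11.95 in WT-labelled LSK cells, and 6.17 and 6.18 against 10.86 and 11.05 in myeloid progenitors, without overlap. Igll1 read 7.49 and 7.78 against 12.56 and 12.54, and 8.66 and 8.51 against 11.32 and 12.42. Vpreb1 read 9.42 and 8.50 against 13.06 and 13.23, and 9.62 and 9.21 against 12.04 and 13.01. The changes of Vpreb3, Igll1 and Vpreb1 were -5.13, -4.91 and -4.19 in LSK cells and -4.78, -3.28 and -3.11 in myeloid progenitors. Rag1, which cuts antigen receptor genes for recombination, read 5.89 and 5.96 against 9.53 and 8.76, and 5.93 and 6.01 against 8.07 and 8.51. Rag1 in all 4 KO-labelled mice, and Vpreb3 in 3 of them, read near or below the 25th percentile of an array, like Ebf1, so these levels cannot be separated from no signal and the sizes of the changes are not ranked. Il7r, the receptor that signals upstream of Ebf1, read 7.35 and 6.93 against 9.16 and 9.33, and 6.45 and 6.33 against 8.36 and 7.64. The Il7r change was -2.11 ± 0.24 in LSK cells (adjusted p = 0.00112) and -1.61 ± 0.24 in myeloid progenitors (adjusted p = 0.00599). In KO-labelled myeloid progenitors Il7r also read near the low end of the array, so the size of the second change is uncertain.

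Blnk, an adaptor in pre-B cell receptor signalling, fell in LSK cells and did not pass in myeloid progenitors. It read 6.25 and 5.77 in KO-labelled against 8.45 and 7.62 in WT-labelled LSK cells (-2.02 ± 0.29, adjusted p = 0.0181), and 5.74 and 5.88 against 5.78 and 5.92 in myeloid progenitors (-0.04 ± 0.29, adjusted p = 0.994). Its level was thus near or below the 25th percentile of an array (6.15 to 6.18) in KO-labelled LSK cells and in myeloid progenitors of both labels. Such levels cannot be separated from no signal, so the size of the fall is no measure of the transcript left. The difference between the 2 changes was -1.98 and did not pass (adjusted p = 0.319).

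**Figure D4:**
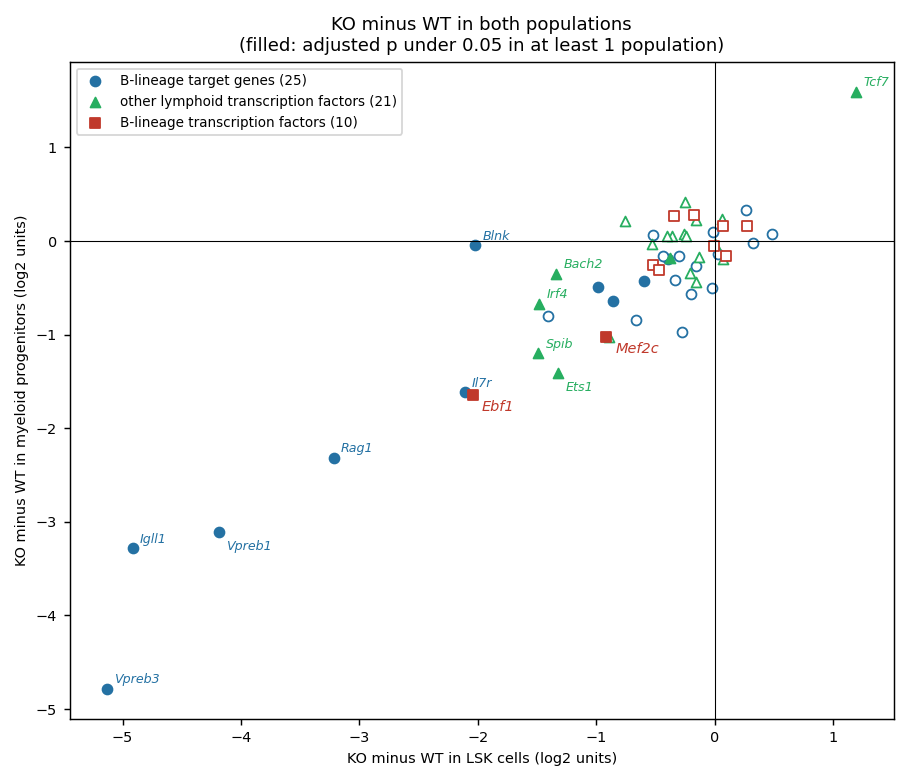
KO minus WT in LSK cells (x axis) and in myeloid progenitors (y axis), both in log2 units, for the 10 B-lineage transcription factors, 25 of their target genes and 21 other lymphoid transcription factors, filled where the adjusted p is under 0.05 in at least 1 population. Ebf1 lies at -2.04 and -1.64, beside Il7r, and most of the other factors lie near 0 while Vpreb3, Igll1, Vpreb1 and Rag1 lie farther out and Tcf7 lies on the high side.

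Other lymphoid transcription factors moved in both directions. Of 21 measured, 5 fell and 1 rose in LSK cells (median -0.26), where 2.9% of all genes were called lower and 1.74% higher. In myeloid progenitors 2 fell and 1 rose (median -0.03), where 1.74% were called lower and 0.908% higher. Ets1, an ETS factor of lymphoid cells, read 10.98 and 10.89 in KO-labelled against 12.49 and 12.02 in WT-labelled LSK cells (-1.32 ± 0.28, adjusted p = 0.0241), and 9.87 and 9.35 against 11.35 and 10.68 in myeloid progenitors (-1.41 ± 0.28, adjusted p = 0.0240). Spib, an ETS factor of B cells and plasmacytoid dendritic cells, fell by 1.49 ± 0.20 and 1.20 ± 0.20 (adjusted p = 0.00267 and 0.0115). Irf4 (-1.48), Bach2 (-1.34) and Lef1 (-0.38) fell in LSK cells and did not pass in myeloid progenitors (-0.67, -0.35 and -0.18), and the difference did not pass for any of the 3 (adjusted p = 0.528, 0.647 and 0.577). Tcf7, which encodes TCF-1 of the T lineage, rose, with 7.91 and 8.04 in KO-labelled against 6.84 and 6.72 in WT-labelled LSK cells and 8.16 and 8.31 against 6.75 and 6.53 in myeloid progenitors (1.20 ± 0.16, adjusted p = 0.00225, and 1.60 ± 0.16, adjusted p = 0.000669). Without mouse 1 or 2, and without mice 1 and 5, 3 fell in LSK cells. Without mouse 5 or 6, 1 fell in myeloid progenitors, and without mouse 8, 0 did.

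Close relatives of the 10 factors mostly did not pass. Of 25 measured, 2 rose and 0 fell in LSK cells (median 0.04), where 1.74% of all genes were called higher, and 0 rose and 1 fell in myeloid progenitors (median -0.06), where 1.74% were called lower. Id1, an inhibitor that binds E proteins such as the Tcf3 product, read 9.34 and 9.52 in KO-labelled against 8.24 and 8.09 in WT-labelled LSK cells (1.26 ± 0.25, adjusted p = 0.0181), and 10.32 and 9.60 against 9.23 and 9.20 in myeloid progenitors (0.75 ± 0.25, adjusted p = 0.221). Lmo1, a paralog of Lmo2, read 9.16 and 8.49 against 7.20 and 7.29 in LSK cells (1.58 ± 0.24, adjusted p = 0.00453), and 8.22 and 8.21 against 8.55 and 8.16 in myeloid progenitors, and the difference between its changes was 1.73 (adjusted p = 0.133). The E protein gene Tcf4 fell in myeloid progenitors, with 7.74 and 7.78 in KO-labelled against 9.15 and 9.47 in WT-labelled mice (-1.55 ± 0.23, adjusted p = 0.00595), a call lost without mouse 6. In LSK cells 1 rose without mouse 1 or 3, and 0 did without mice 1 and 5.

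Of 8 measured partners of the LMO2 complex, limma called 0 in either population, against 4.64% and 2.64% of all genes. At an unadjusted p under 0.05 there was 1 in LSK cells and 1 in myeloid progenitors. These counts lay near the shares of all genes, 16.6% and 11.4%. Without mouse 2 there was 1 called in LSK cells, and without mouse 2 or 4 there was 1 in myeloid progenitors. The mean over both populations passed for Gata3, which fell by 1.00 ± 0.23 (adjusted p = 0.0263), but 0 passed for the mean without mouse 1, 3, 5, 6, 7 or 8, without mice 1 and 5 together, or with Kdm5d as a covariate. With all mice that mean was thus called for 1 of the 8 partners, against 7.95% of all genes called and 4.85% called lower. The 2 with the largest mean changes were Gata3 and Gata1. Gata3 read 10.25 and 9.14 in KO-labelled against 10.53 and 10.53 in WT-labelled LSK cells, and 6.82 and 7.08 against 8.32 and 7.89 in myeloid progenitors (-0.84 and -1.16, adjusted p = 0.230 and 0.127). Gata1, which drives the red cell lineage, read 8.09 and 8.42 against 7.52 and 7.90, and 9.84 and 10.52 against 9.32 and 10.46 (0.54 and 0.29, adjusted p = 0.565 and 0.916).

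Of the markers of other cells a few were called, where 2.9% of all genes were called lower and 1.74% higher in LSK cells, and 1.74% lower and 0.908% higher in myeloid progenitors. Spib, Irf8, Tcf4, Irf4, Prdm1 and Xbp1 also stand on lists given above, so calls of these genes are counted again here. Of 6 measured plasmacytoid dendritic cell markers, a cell type in which Mef2c, Spib and Tcf4 are also used, 3 fell in LSK cells (Spib, Bst2 and Ccr9) and 3 in myeloid progenitors (Spib, Tcf4 and Bst2). Their summed level (log2 of the sum) was 12.38 to 12.76 in KO-labelled against 13.36 to 13.59 in WT-labelled LSK cells, and 12.40 to 12.63 against 13.36 to 13.70 in myeloid progenitors. Of 6 plasma cell markers 2 fell in LSK cells (Tnfrsf17 and Irf4), with a summed level of 14.25 to 14.29 in KO-labelled against 14.72 to 15.07 in WT-labelled mice. In myeloid progenitors 1 of the 6, Sdc1, rose, with sums of 14.31 to 14.93 against 14.54 to 14.56. Of 6 measured mature B cell markers, 2 of them also on the target list, 1 fell (Ms4a1) and 1 rose (Fcer2a) in LSK cells, with sums of 11.92 to 13.41 against 14.03 to 14.37, and Ms4a1 fell in myeloid progenitors, with sums of 12.61 to 13.04 against 12.24 to 12.82. Of 9 T cell markers 2 fell in LSK cells (Cd3d and Cd28) and 1 in myeloid progenitors (Cd28), with sums of 9.81 to 9.95 against 10.11 to 10.37, and 9.90 to 9.93 against 10.06 to 10.06. The part of such cells in the changes of Ebf1, Mef2c and the target genes was not tested.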

How the data were processed

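Total RNA of sorted cells was amplified by in vitro transcription and coupled to Cy5, per the labels' protocols. The deposited values are log2 expression levels made by the authors, and limma is named without a version, per the submitters' processing notes. The range is 5.66 to 15.93. Ranked values are nearly the same on every array, within 0.0451, as after quantile scaling, and no further scaling was applied. The sources used here give no scanner, background correction or spot filter.

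Probes were named through the platform annotation and a RefSeq gene table (GRCm38.p6): a current symbol matched for 18213 probes and an older one for 2126, the array's own name was kept for 36, and 2064 stayed unnamed. Promoter sequences are from RefSeq. The mouse was the replicate. The 3 arrays of a mouse were averaged, and limma 3.58.1 (R 4.3.3, trend and robust options) took all 4 groups in 1 fit. The residual degrees of freedom were 4, to which empirical Bayes added 6.91 (median). Two-sided p-values were Benjamini-Hochberg adjusted across the whole table of 22439 probes and called under 0.05. With 2 mice against 2 an exact permutation test cannot reach that threshold and was not used. The number of mice limits the precision.

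The genes, the context lists and the tests were chosen with earlier results of these data known. Named beside the 10 genes were up to 6 members of a list with the largest mean change among those past the threshold (the 2 with the largest change where fewer than 2 passed), and the 3 genes closest to each factor that passed. Markers of other cells were given as counts with the names of those past the threshold. The alternatives tried were single arrays in place of mouse means (mouse as random block), the same plus the array number as a block, other scalings, probe filters, averaged probes, plain empirical Bayes, compared groups alone, each mouse or array number left out, and both mice with a Kdm5d signal left out or Kdm5d as a covariate. Settings for the lists, and each second probe on its own, were added after seeing the data.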

Additional observations from a re-analysis of the deposited data

How the results depend on the processing

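With 2 mice per group, the KO minus WT changes of the brighter Mef2c probe passed or missed the threshold depending on the setting. Ebf1 passed in both populations under all 22 alternatives. Between the populations, Lmo2 in WT-labelled mice (1.18) and the brighter Mef2c probe in KO-labelled mice (1.33) also passed under all 22. No result turned its direction past the threshold. With single arrays and the mouse as random block, 4 of the 10 factors passed in LSK cells (Ikzf1 and Pou2af1 beside Ebf1 and Mef2c), 4 for the mean and 3 between the populations of KO-labelled mice, with 2671 genes called in LSK cells and 1629 in myeloid progenitors. The array numbers do not pair mice: deviations of arrays with the same number correlated with a median of 0.0057 (different numbers 0.0049), and 7 of 24 arrays correlated best with their own number. With the array number as a replicate block the counts were 4, 4 and 3 factors, and 2570 and 1549 genes. Without the trend and robust options 549 and 288 genes were called. With the compared groups alone 479 genes and 1 factor passed in LSK cells. With probes averaged 1 factor passed in LSK cells, 1 in myeloid progenitors and 1 for the mean, and the genes called there are not given here. Between the populations of KO-labelled mice 2 passed under these last 3 settings, under cyclic loess and above the 25th percentile of probes, and 3 above the 50th. The genes called under each setting are not given here for the mean or between the populations of KO-labelled mice. Over the alternatives they reached 3196 and 4628 of 17741. The factor counts for these comparisons are given without a share of all genes, so they are not read as a result about the factors. Without mice 1 and 5, 331 and 243 genes were called, with 1 factor in each population and 1 between the populations of WT-labelled mice, and with Kdm5d as a covariate 1 factor in each. The genes called with Kdm5d as a covariate, or between the populations of WT-labelled mice without mice 1 and 5, are not given here. Those factor counts therefore have no share of all genes beside them. The cause of these changes in the counts was not tested. Leaving out single mice or array numbers gave 430 to 968 genes in LSK cells and 196 to 546 in myeloid progenitors, with 1 to 2 factors in each, 2 to 2 for the mean, 1 to 2 between the populations of KO-labelled mice and 3 to 4 between those of WT-labelled mice. The count in LSK cells was 430 without mouse 1, and that in myeloid progenitors 289, 247 and 196 without mouse 5, 6 and 8. Over all alternatives the genes called numbered 735 to 3196 for the mean (1410), 0 to 454 for the difference (11), 936 to 4628 between the populations of KO-labelled mice (2262) and 617 to 4675 between those of WT-labelled mice (2403).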
